A study of Arabidopsis thaliana with 4 samples.

Results

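The microRNAs (miRNAs) ath-miR161.1, ath-miR161.2 and ath-miR400 of Arabidopsis thaliana, here miR161.1, miR161.2 and miR400, were chosen by name, from the probe identifiers of a miRNA array, and make up 3 of the 213 miRNA probes measured. They belong together because they act on messenger RNAs of pentatricopeptide repeat (PPR) proteins. The arrays hold small RNA of seedlings of 4 groups. WT_control is the wild type on Murashige and Skoog (MS) medium with 0 mM NaCl, and WT_salt is the wild type on the same medium with 100 mM NaCl. ABR17_control and ABR17_salt are seedlings that express a cDNA of ABR17, an abscisic acid-responsive gene, at 0 and 100 mM NaCl. Seeds germinated on these media, and the labels give the growth time both as 2 weeks and as 7 days. The labels name neither the promoter of the transgene nor the number of independent lines. Each group has 1 array, although the design text speaks of 3 biological replicates, so that no difference below has a replicate check and none was tested. By its title, the series concerns miRNA-mediated regulation in ABR17 plants under salt stress.

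PPR proteins form one of the largest protein families of land plants. Most of them enter mitochondria or chloroplasts, where they bind organelle transcripts and take part in their editing, splicing and stability. In Arabidopsis a fast-evolving group of PPR messenger RNAs is cut by miR161, by miR400 and by trans-acting small interfering RNAs (siRNAs), and the cut transcripts give rise to further siRNAs. The MIR161 precursor is cut out in overlapping registers, which gives miR161.1 and miR161.2 from the same arm.

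The RNA sequences that the probes detect are given below as the array files list them, 5′ to 3′, with the seed (bases 2 to 8) in capitals, since they show that the seeds of the 3 miRNAs differ.
miR161.1: uGAAAGUGacuacaucggggu
miR161.2: uCAAUGCAuugaaagugacua
miR400: uAUGAGAGuauuauaagucac
All 3 are 21 bases long and begin with U, the first base that the slicing protein ARGONAUTE1 favours. Their content of G and C falls from 47.6% in miR161.1 to 33.3% in miR161.2 and 28.6% in miR400. No other probe carries the seed of miR161.1 or of miR161.2, and 1 other probe, that of miR5029, carries the seed of miR400.

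The last 12 bases of miR161.2 are the first 12 of miR161.1, shown in capitals in the next lines, so the registers lie 9 bases apart and cover 30 bases together.
miR161.2: ucaaugcauUGAAAGUGACUA
miR161.1: UGAAAGUGACUAcaucggggu
This is the longest run that either shares with any of the other 212 probes, and the next longest is 7 bases. In the best ungapped alignment each member has 9 mismatches in 21 positions to its nearest other probe, where positions beyond the end of the other sequence count as mismatches. Between miR161.1 and miR161.2 these 9 are all such overhang, and the 12 aligned bases are identical. How much miR161.1 binds to the probe of miR161.2 was not tested. In the RefSeq gene table (assembly TAIR10.1) the gene MIR161 (AT1G48267) lies between CIPK17, which encodes a protein kinase, and the transcribed pseudogene AT1G48268. MIR400 (AT1G32582) lies within the protein-coding gene AT1G32583, which also spans MIR5654.

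Each miRNA has 12 repeat spots on an array, as 3 spots in each of 4 blocks of rows, and a spot's value is its mean Cy3 fluorescence (intensity, in arbitrary units), from which, by the level of the blank spots, no background had been subtracted. Blank spots averaged 231 and 84.8 on WT_control and WT_salt, and 111 and 86.5 on ABR17_control and ABR17_salt. A spot was called above background where it exceeded the mean of the 1120 blank spots by 3 of their SD, which gave thresholds of 298, 101, 151 and 98.3 in that order. A miRNA was called detected where at least 6 of its 12 spots did so. By this rule 63 of the 213 miRNAs passed on 1 array or more, and 30 passed on every array. WT_control stood apart from the other arrays by its blank spots and by the calibration probe PUC2MM, which read 11421 there and from 1176 to 4019 elsewhere, and it enters every comparison with the untreated wild type. The juvenile miRNA miR156a and the leaf polarity miRNAs miR165a and miR166a passed in all 12 spots of every array, while miR172a, which rises as plants age, was detected on WT_control and ABR17_salt. The arrays hold no messenger RNA probe and none for the transgene.

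The members differed first in whether they were detected at all. The probe of miR161.1 was above the threshold in 12 of 12 spots on every array, that of miR161.2 in enough spots only on ABR17_salt, and that of miR400 on no array. Intensities of different probes depend on the probe as well as on the RNA, so their order does not rank the abundance of the miRNAs.

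**Figure D1:**
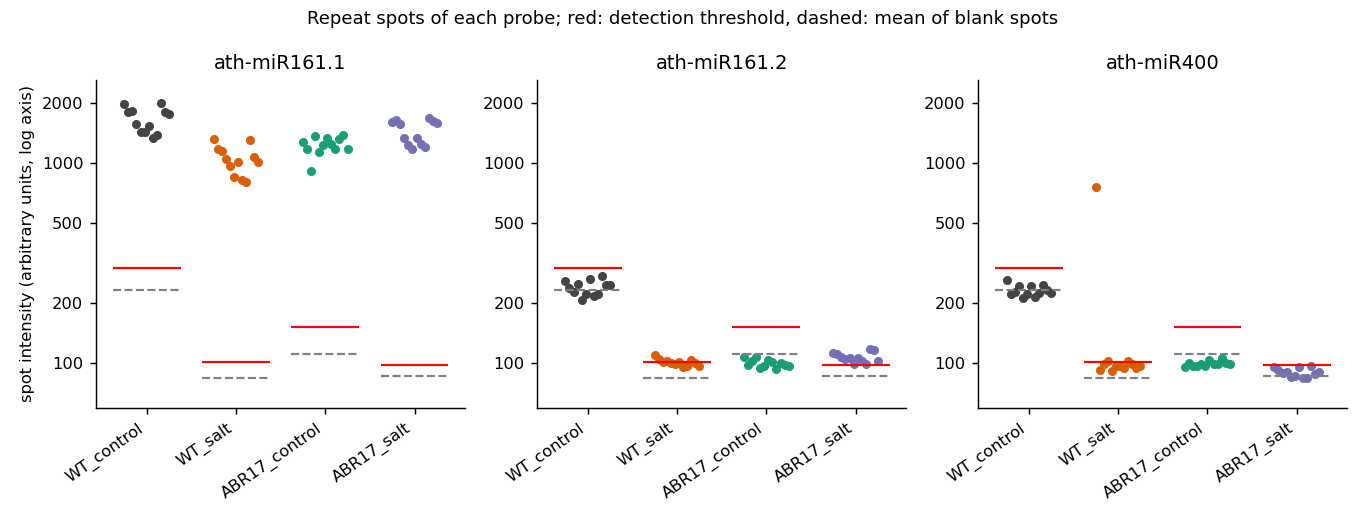
Intensity of each of the 12 repeat spots (points, log axis, arbitrary units) of the 3 probes on the 4 arrays, with the detection threshold of each array (red line) and the mean of its blank spots (dashed line). The spots of miR161.1 lie far above every threshold. Those of miR161.2 straddle the threshold on WT_salt and all lie just above it on ABR17_salt. The probe of miR400 has 1 spot of 759 on WT_salt, where its other spots reach at most 103.

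The probe of miR161.1 was among the brightest of every array. On WT_control its spots ran from 1333 to 1991 with a median of 1660. On WT_salt they ran from 800 to 1310 with a median of 1030. The dimmest spot of WT_control was thus brighter than the brightest of WT_salt in the values as scanned. On ABR17_control the spots lay between 906.5 and 1373 with a median of 1235, and on ABR17_salt between 1176 and 1672 with a median of 1448. These ranges overlap with each other, and each also overlaps with those of both wild type arrays. The probe stood 5.53 times above the detection threshold on WT_control, where background was highest, and 14.6 times above it on ABR17_salt.

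With the mean of the blank spots taken off, miR161.1 averaged 1415 ± 67.8 (SE of 12 repeat spots) on WT_control, 1346 ± 56.2 on ABR17_salt, 1111 ± 36.9 on ABR17_control and 958 ± 49.1 on WT_salt. WT_control and ABR17_salt, neighbours in this order, differ by less than the SD of their spots, and so do ABR17_control and WT_salt by less than that of WT_salt. These values still hold the overall brightness of each scan, and the order changed once the arrays were brought to a common scale. In the main processing, intensities were background corrected (normexp with an offset of 50), put on the log2 scale, and averaged over the 12 spots, and the 213 miRNA means were then quantile normalised. The normalised log2 level of miR161.1 was then 10.30 ± 0.24 (SD of 12 spots) on WT_salt, 10.30 ± 0.20 on ABR17_salt, 10.21 ± 0.23 on WT_control and 10.15 ± 0.17 on ABR17_control. Between any of these the difference is below the spread of the spots. In the authors' deposited table the order was the same but for the untreated arrays, at 1244 on WT_salt, 1241 on ABR17_salt, 1190 on ABR17_control and 1168 on WT_control, the highest being 1.06 times the lowest against 1.58 times for the mean spot intensities.

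Quantile normalisation gives a probe the value of its rank, so the small differences between arrays are steps of rank. On each of the salt arrays miR161.1 was the probe of rank 3, behind miR854a and miR166a. On WT_control it was of rank 4, behind miR165a, a regulator of leaf polarity. On ABR17_control it was of rank 5, with an unnormalised log2 level of 10.201 against 10.202 for miR159b, which targets GAMYB-like factors and held rank 4. The difference of 0 between the salt arrays thus comes from equal ranks and does not measure how far the levels agree.

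With salt, the normalised level of miR161.1 in the wild type was higher by 0.09 ± 0.10 on the log2 scale (1.07-fold), where the SE takes the repeat spots of the arrays as independent. With spots matched by their place on the array the SE was 0.03. In the transgenic it was higher by 0.15 ± 0.08 (SE of repeat spots, 1.11-fold). Without salt the transgenic differed from the wild type by −0.06 ± 0.08, and with salt by 0.00 ± 0.09. The spots of the compared arrays overlapped in all 4 comparisons.

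A miRNA was counted as changed if either array of the pair detected it, its log2 difference reached 1 (2-fold) and the repeat spots of the arrays did not overlap. By this rule miR161.1 was counted in none of the comparisons. The background is low as well. For salt, 8.62% of 58 miRNAs were counted in the wild type and 1.69% of 59 in the transgenic. For the transgene, 10.3% of 39 were counted without salt and 0% of 62 with salt. In that order, 43, 32, 32 and 59 of these miRNAs had a difference, and the others could not have been counted. The absolute difference of miR161.1 was larger than that of 9 of the 35 miRNAs detected on both arrays for salt in the wild type, where their median absolute difference was 0.35. It was larger than that of 13 of 30 for salt in the transgenic (median 0.18) and of 8 of 30 for the transgene without salt (median 0.25). Over the 4 arrays its normalised level spanned 0.15, against a median span of 0.55 for the 30 miRNAs detected everywhere, and 5 of the 30 had a smaller span.

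The salt responses of the genotypes differed by 0.06 ± 0.12 (transgenic minus wild type, SE of repeat spots). The same quantity had a median absolute value of 0.31 over the 30 miRNAs detected on all arrays and reached 1 or more in 8 of them. In the authors' deposited table the salt responses of miR161.1 were 0.09 in the wild type and 0.06 in the transgenic on the log2 scale, which leaves a difference of −0.03.

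These small values hold for some ways of scaling the arrays and not for others. For salt in the wild type the difference was 0.06 with cyclic loess, 0.13 with the 75th percentile of the miRNAs detected everywhere and 0.04 with the calibration probes as scale, but −0.56 with no normalisation, −0.77 with the 5S rRNA probes and 1.17 with the median of the miRNAs detected everywhere. In the last case miR161.1 met the rule for a counted miRNA. The 5S rRNA probes averaged from 36776 on ABR17_control to 48763 on WT_salt, far above miR161.1. Whether they follow the brightness of dimmer probes was not tested. All these scalings move every miRNA of an array, and the miRNAs detected on both arrays had a median difference of −0.92 without normalisation, −1.13 with the 5S rRNA probes and 0.82 with median scaling. Relative to that median, miR161.1 was higher with salt by 0.35 under each scaling by a constant, by 0.19 with cyclic loess and by 0.09 with quantile normalisation. For salt in the transgenic the corresponding relative values were 0.26, 0.20 and 0.15. For the transgene without salt they were 0.21, −0.04 and −0.06, and for the transgene with salt 0.28, 0.00 and 0.06. A constant cancels in a value taken relative to the median, so the scalings by a constant agree by construction and count as 1 result. In that result miR161.1 stood above the median miRNA in all 4 comparisons, which share the same 4 arrays. With cyclic loess or quantile normalisation this excess was smaller or turned slightly negative.

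**Figure D2:**
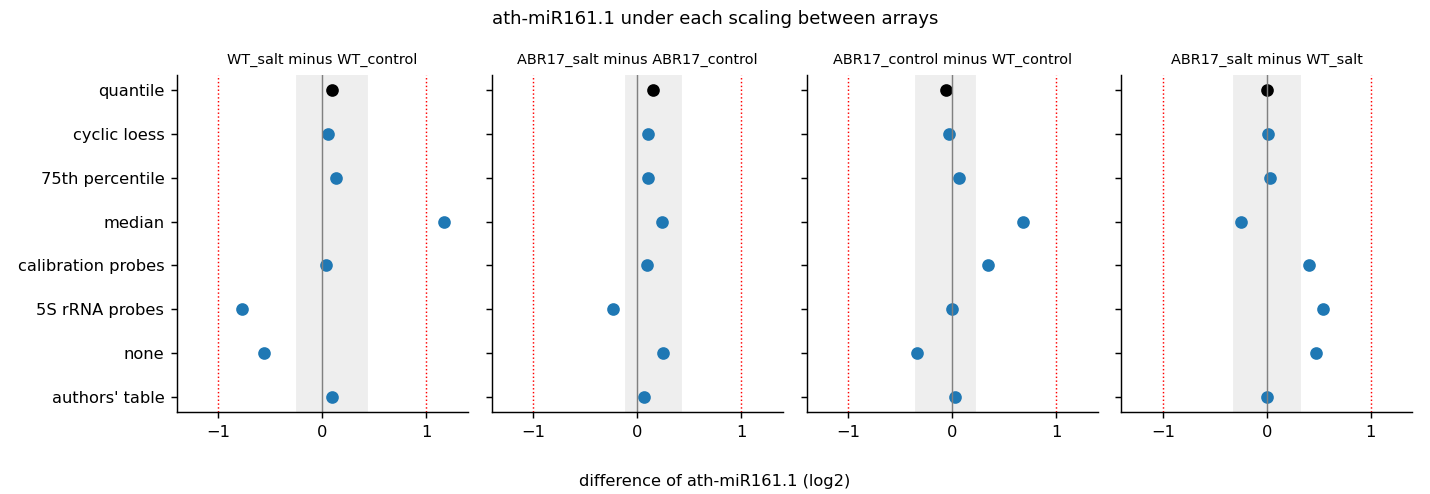
Difference of miR161.1 in the 4 comparisons (log2, x axis) under each scaling between arrays (y axis), with the main value in black, a grey band of 1 SD of the repeat spots round it and dotted lines at the 2-fold limit. Quantile, cyclic loess, the 75th percentile and the authors' table lie within the band in every comparison, and the widest spread is that of salt in the wild type, from −0.77 to 1.17.

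The repeat spots of miR161.1 varied by place on the array, and in the same way on 3 of the 4 arrays. On WT_control the first and last blocks of rows averaged 1858 and 1851, while the blocks between them averaged 1468 and 1409. The ratio of outer to inner blocks was 1.29 on WT_control, 1.27 on WT_salt and 1.29 on ABR17_salt. On ABR17_control it was 0.96, with block means from 1113 in the first to 1286 in the last. That first block holds the dimmest spot of miR161.1 on ABR17_control, 906.5, whose pixels varied with an SD of 53.5% of its mean. For the other spots of miR161.1 there this was 3.34% to 9.97%, and the dimmest of them read 1139. The ratio without the uneven spot was not computed. Over the 30 miRNAs detected everywhere, the median of this ratio was 1.13, 1.11 and 1.13 on the first 3 and 0.97 on ABR17_control, and miR161.1 had the highest ratio of the 30 on WT_control and on ABR17_salt.

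Spots in the same place can therefore be compared directly. Across the 12 places the log2 intensities of miR161.1 correlated at r = 0.93 between WT_control and WT_salt, 0.96 between WT_control and ABR17_salt and 0.87 between WT_salt and ABR17_salt, whereas every pair with ABR17_control lay between −0.03 and 0.01. These places share the layout of the array and describe it, not the seedlings. Matched by place, 9 of 12 spots in the wild type were higher with salt after normalisation, against 0 of 12 as scanned. The means of this difference in the 4 blocks ran from 0.01 to 0.14. For salt in the transgenic the matched SE stayed at 0.08, and the block means ran from −0.07 to 0.47. For the transgene without salt they ran from −0.41 to 0.21. In the comparisons with ABR17_control the place of a spot thus moved the difference by more than the difference itself. The uneven spot of ABR17_control enters its correlations and the means of the first block, which are the 0.47 and the −0.41. The last block, without that spot, gave 0.27 for salt in the transgenic and −0.18 for the transgene without salt.

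**Figure D3:**
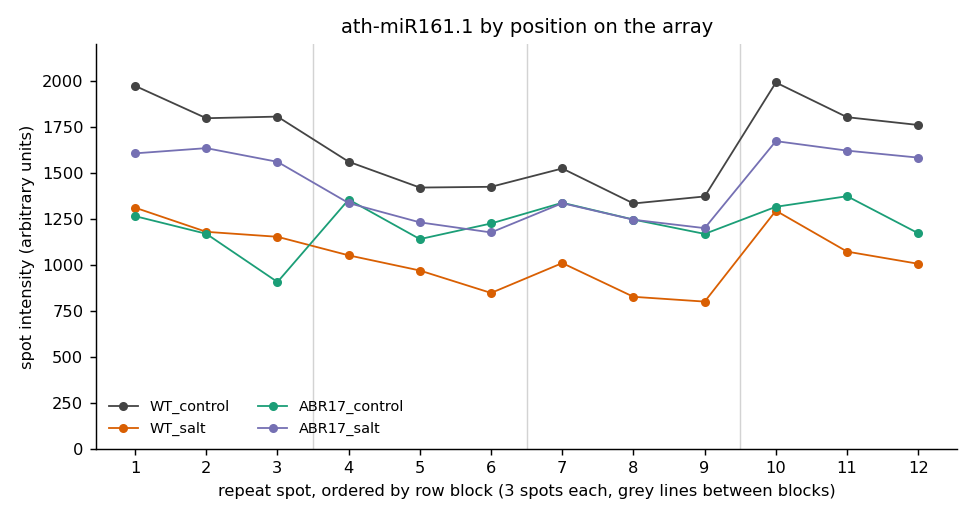
Intensity of the 12 repeat spots of miR161.1 (y axis, arbitrary units) in the order of their rows and columns (x axis), with grey lines between the 4 row blocks and 1 line per array. WT_control, WT_salt and ABR17_salt run parallel with high outer blocks, while ABR17_control does not follow them.

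The second product of the locus, miR161.2, stayed near background. On ABR17_salt its spots ran from 99.2 to 118 and all 12 lay above the threshold of 98.3. On WT_salt they ran from 96.2 to 111, and 5 of 12 lay above the threshold of 101. On ABR17_control, where they ran from 94.1 to 108, and on WT_control, where they ran from 207 to 274, none did. Only on ABR17_salt was miR161.2 called detected, as 1 of 5 of the 213 miRNAs detected on that array alone. The same count was 3 on WT_salt, 1 on WT_control and 0 on ABR17_control. ABR17_salt also had the most miRNAs detected, 59, against 54 on WT_salt, 39 on WT_control and 30 on ABR17_control. With the outer blocks of rows alone it was detected on WT_salt too, in 4 of 6 spots. With a threshold of 6 blank SD, 4 of its 12 spots passed on ABR17_salt and it was detected nowhere.

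Minus the blank mean, miR161.2 averaged 20.6 ± 1.75 (SE of 12 spots) on ABR17_salt, 16.3 ± 1.17 on WT_salt, 7.81 ± 5.91 on WT_control and −10.9 ± 1.27 on ABR17_control. The last value does not show a lower level, since 163 of 213 miRNA probes averaged less than the blank spots on that array. Nor do the values of the salt arrays show a signal by themselves. On WT_salt 0 of 213 probes averaged less than the blank spots, and the median miRNA spot read 98.9 against a blank mean of 84.8. On ABR17_salt 13 probes did, and the median miRNA spot read 91.5 against a blank mean of 86.5. With the higher thresholds of WT_control and ABR17_control, a level such as that of the salt arrays could not have been detected there. No salt difference is given for miR161.2: in the wild type it was detected on neither array, and in the transgenic its level on ABR17_salt lay below the lowest level detected on ABR17_control.

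Between the salt arrays the normalised log2 level of miR161.2 was 6.52 on ABR17_salt and 6.31 on WT_salt. The difference of these levels was 0.21 ± 0.04 (SE of repeat spots) and was not counted. It stands for a bound only within this processing, because miR161.2 was not detected on WT_salt, and other processing gave values from 0.020 to 0.86. As scanned, the means were 107 and 101. With no normalisation the difference was 0.090, which is −0.10 relative to the median of the miRNAs detected on both arrays, against 0.27 relative to that median in the main processing. The spots of the 2 arrays overlapped. Compared place by place, 11 of 12 spots were brighter on ABR17_salt as scanned, 10 of 12 after the blank mean was subtracted and 12 of 12 after normalisation. In the authors' deposited table miR161.2 read 28.9 on ABR17_salt, 15.9 on WT_salt, 15.0 on WT_control and 7.69 on ABR17_control.

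The probe of miR400, whose best known targets are PPR genes of pathogen defence, was not detected on any array, and 1 of its spots was far brighter than the others. On WT_control its spots ran from 211 to 261, on ABR17_control from 96.2 to 106 and on ABR17_salt from 84.5 to 96.6, and none passed the threshold. On WT_salt 11 spots lay between 91.2 and 103, while the spot in row 14 and column 5 read 759. Just 3 spots of this array passed the threshold, so miR400 was not detected there.

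The 8 neighbours of the bright spot on the array read from 98.3 to 212, and the spot in the same place read 261 on WT_control, 96.2 on ABR17_control and 95.9 on ABR17_salt. Its pixels varied with an SD of 74.6, or 9.82% of its mean, against 3.53% to 5.85% for the other 11 spots of miR400 on WT_salt. The spot in the same place on WT_control was the brightest of miR400 on that array and had the more uneven pixels, with an SD of 18.1% of its mean against 3.06% to 6.01% for the others there. The bright spot of WT_salt was 7.37 times the next brightest spot of the probe, the second largest such ratio among 852 combinations of miRNA and array, of which 31 exceeded 1.5.

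This 1 spot sets the mean of the probe. All 12 spots averaged 152 ± 191 (SD) on WT_salt, whereas the other 11 averaged 97.0 ± 3.70, or 12.1 above the blank mean. The median miRNA spot of that array read 98.9. In the authors' deposited table miR400 read 103 on WT_salt against 8.22 on WT_control, 7.15 on ABR17_control and 7.76 on ABR17_salt, and no ratio is given since the probe was above background on none of those 3 arrays. Over the miRNAs detected on WT_salt, the authors' deposited value was in the median 1.43 times the mean intensity minus blank. At that ratio miR400 would read 95.9 with all spots and 17.3 without the bright one. The ratio was not constant, at 1.30 for miR161.1, 1.58 for miR173 and 0.97 for miR161.2, and miR400 itself was not among the detected miRNAs. How the authors treated this spot was not tested. No salt response of miR400 was computed, because the probe was detected on neither array.

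**Figure D4:**
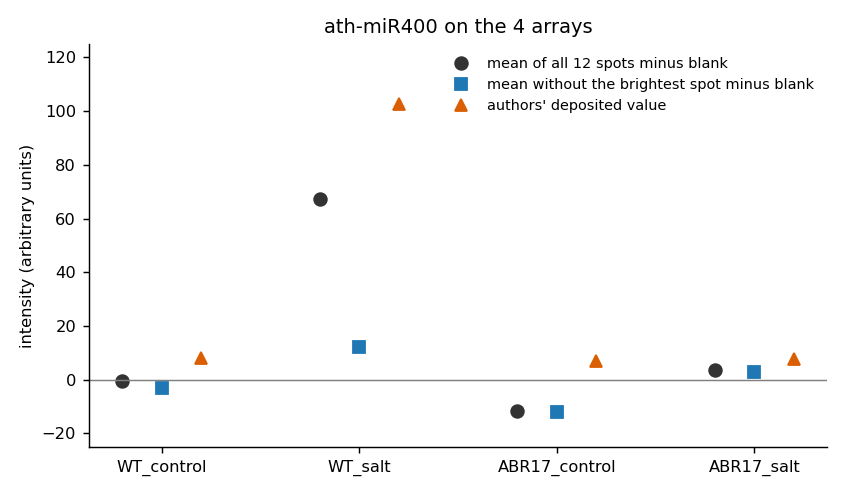
Level of miR400 on the 4 arrays (y axis, arbitrary units) as the mean of all 12 spots minus blank (circles), the mean without the brightest spot minus blank (squares) and the authors' deposited value (triangles). On WT_salt the mean minus blank is 67.3 with the bright spot and 12.1 without it, and the authors' value is 103.

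Of the other miRNAs of the PPR and trans-acting siRNA pathway, the arrays carry miR173 and miR390a. The former starts the siRNAs of the TAS1 and TAS2 transcripts, some of which also cut PPR messenger RNAs, and the latter starts those of TAS3, which act on auxin response factors. Both were above the threshold in 12 of 12 spots on every array, and neither was counted in any of the 4 comparisons. Among the members and these 2 miRNAs, 3 of 5 were thus detected on all arrays, against 30 of all 213. For the other 2, miR161.2 and miR400, most comparisons gave no value and could not have been counted.

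The level of miR173 averaged 666 without and 410 with salt in the wild type, and 312 without and 651 with salt in the transgenic, as mean intensity minus blank. Its normalised difference with salt was 0.69 ± 0.08 in the wild type and 0.83 ± 0.09 in the transgenic (log2, SE of repeat spots), larger in both than that of miR161.1. After normalisation all 12 places were higher with salt in each genotype, while as scanned 0 of 12 were higher in the wild type and 12 of 12 in the transgenic. Whether these differences exceed that of miR161.1 was not tested. For miR390a the salt differences were 0.68 ± 0.13 in the wild type and 0.00 ± 0.05, a tie of rank, in the transgenic. As mean intensity minus blank, however, miR390a averaged 575 without and 197 with salt in the wild type, and 256 and 244 in the transgenic. In the wild type 12 of 12 places were higher with salt after normalisation, but 0 of 12 as scanned and 1 of 12 minus blank. The authors' deposited values of miR390a in the wild type were 276 without and 271 with salt. On WT_salt 1 of its spots read 593 against at most 296 for the others, and without that spot its mean intensity minus blank fell from 197 to 169.

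By the smallest distance between profiles of normalised log2 levels, each taken about its own mean over the 4 arrays, the miRNAs most like miR161.1 among the 30 detected everywhere were miR156a (distance 0.06), miR159c (0.12), miR156g (0.12), miR166a (0.13) and miR854a (0.13). Of these, miR166a and miR854a held the same rank on every array, so their profile is flat by construction. The level of miR156a, which targets SPL factors, was 10.21 on WT_salt, 10.15 on ABR17_salt, 10.07 on WT_control and 9.98 on ABR17_control, the same order of arrays as for miR161.1 but without its tie.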

How the data were processed

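Per the labels' protocols, total RNA of seedlings was enriched for small RNA, given a 3′ adapter and stained with Cy3 by a service provider. The labels and array files used here name no scanner, image software or genome build, and TAIR10.1 is the assembly of the gene table alone. Per the file headers, the authors deposited a mean intensity and an SD for each of 3968 spots per array, the SD being read here as that of the pixels of a spot. Blank spots read well above 0, so background was taken as not subtracted. The authors also deposited a table of 1 processed intensity per miRNA and array, whose scaling is not stated. That table is linear and uncentred by comparison with the spots, and its scaling stays unknown.

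Spots were corrected with normexp (limma 3.58.1 in R 4.3.3, offset 50), taken to log2, averaged over 12 spots and quantile normalised over 213 miRNAs. The offset draws differences of dim probes towards 0. A miRNA detected on 1 of 2 arrays gave a bound against the higher of its own level and the lowest detected level of the other array. No value was given where that bound did not exceed 0. No test was made, with 1 array per group. SD and SE come from repeat spots and measure spotting and scanning only, so precision is set by having 1 array per group. Named were the 3 members, the other miRNAs of the pathway on the arrays, the 5 miRNAs most like miR161.1 and the probes nearest in sequence. The members and lists were chosen with earlier results of these data known. Scripts were tested on simulated data. Background correction, scaling, summary of spots, detection and the authors' table were tried as alternatives, and the row blocks were added after the data were seen.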

Additional observations from a re-analysis of the deposited data

Results flagged for a closer look

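The authors' deposited table, outside the spot values compared above, gives miR400 a signal on WT_salt, 102.81, well above its values on the other arrays, of which 8.22 is the highest. In the spots the probe was not detected there, and the mean spot intensity was 152 with and 97.0 without 1 bright spot of 12. The part of that spot in the deposited value was not tested. With 1 array per group, no sample could be set against others of its group.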

How the results depend on the processing

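No paired analysis was possible because each group has 1 array, and for the same reason none could be left out in turn. Each difference of miR161.1 was recomputed under 16 alternatives, 2 of them chosen after the data were seen. The difference for salt in the wild type (0.09) moved by more than the SD of the repeat spots with median scaling (1.17), no normalisation (−0.56) and 5S rRNA scaling (−0.77). That for salt in the transgenic (0.15) so moved with 5S rRNA scaling (−0.23). The transgene without salt (−0.06) moved with median scaling (0.69) and calibration scaling (0.35), and the transgene with salt (0.00) with no normalisation (0.47), calibration scaling (0.40) and 5S rRNA scaling (0.54). The difference of the salt responses (0.06) moved with median scaling (−0.94), no normalisation (0.81) and 5S rRNA scaling (0.54). The value of miR161.2 between the salt arrays (0.21) moved with normexp at offset 0 (0.41), the blank mean subtracted (0.51), calibration scaling (0.020) and the authors' deposited values (0.86). It was given under 12 alternatives, but a bound at or below 0 is left out by rule, so the sign of the bounds was fixed. With the outer row blocks, which detected it on both arrays, it was a difference and no bound, at 0.24. With the 75th percentile, median scaling or detection with all spots the bound did not exceed 0, so no value was given. With detection at 6 blank SD neither array detected it. The outer row blocks alone gave −0.21 and the inner ones 0.08 for miR161.1 with the transgene without salt. The number of miRNAs counted ranged from 3 to 24 for salt in the wild type (5 in the main processing), from 0 to 7 for salt in the transgenic (1), from 2 to 12 for the transgene without salt (4) and from 0 to 6 for the transgene with salt (0). The cause of these shifts was not tested. All alternatives use the same 4 hybridisations and say nothing about the spread between seedlings.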

Other observations

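Single bright spots were found for other probes as well. In 31 of 852 combinations of miRNA and array the brightest of 12 spots exceeded the next by more than 1.5 times, of which 14 lay on WT_salt, 10 on ABR17_control, 4 on WT_control and 3 on ABR17_salt. The ratio exceeded 5 for miR400 on WT_salt and for miR414 on ABR17_control, where 1 spot read 1099 against 113 for the next. These probes were named after their values were seen.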
